A study of Homo sapiens with 14 samples.

Results

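The places bound by the progesterone receptor (PR) and by POLR3A, the largest catalytic subunit of RNA polymerase III, were compared in T47D cells after 1 h of progesterone (P4). T47D, an established line from a human breast tumour, expresses PR and was the single line used. Each antibody had 3 replicate chromatin immunoprecipitation libraries under P4, but the deposited values came as 1 peak list per antibody, so no value had a replicate check and replicate error could not be estimated. Counting chromosomes 1 to 22 and X, the lists held 111515 PR and 47904 POLR3A regions, and these 159419 members were taken from 227513 regions in the 4 lists of the series. The other 2 lists came from cells given ethanol, the vehicle, for 1 h, and were used here only as a further readout of the same places.

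PR is a steroid hormone receptor. On binding progesterone it attaches to DNA at progesterone response elements, often in enhancers far from the genes it controls, and breast epithelium is one of its main target tissues. RNA polymerase III makes short untranslated RNAs, among them the transfer RNAs (tRNAs), 5S ribosomal RNA, U6 and the 7SK RNA, and it is recruited by factors that bind elements inside or just before those genes.

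A PR region and a POLR3A region were called joint when they overlapped by 1 bp or more. By that rule 24193 of the POLR3A regions, 50.5% (95% Wilson interval 50.1 to 51.0, counting error only), and 23310 of the PR regions, 20.9% (20.7 to 21.1), were joint. They merged into 22461 joint loci, of which 20291 or 90.3% held exactly 1 region of each factor. A further 88205 PR regions and 23711 POLR3A regions stood alone, which gave 134377 separate places in all. Over the chromosomes the share of POLR3A regions that were joint ran from 41.4% on chromosome 18 to 63.5% on chromosome 13, and the share of PR regions from 9.39% on chromosome 2 to 27.9% on chromosome 11.

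The promoters with the strongest joint occupancy show at base level how close the 2 summits, the points of highest signal, could lie. A promoter was taken as the 250 bases before a gene's start and the first 50 after it, and 539 of 34789 promoters (513 genes) held both summits of an overlapping pair. The 4 genes ranked highest by the weaker of their 2 percentiles are shown, from RefSeq with build GRCh38.p14, 5′ to 3′ on the gene's strand, from 250 bases before the start up to the first 10 bases of the gene. Capitals mark the bases from the PR summit to the POLR3A summit.
FAM107B (chr10:14571990-14572249, minus strand): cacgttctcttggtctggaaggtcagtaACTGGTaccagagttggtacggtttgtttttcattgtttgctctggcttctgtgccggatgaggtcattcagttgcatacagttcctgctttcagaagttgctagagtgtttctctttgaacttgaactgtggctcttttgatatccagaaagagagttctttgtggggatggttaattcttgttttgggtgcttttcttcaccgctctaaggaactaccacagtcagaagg
LINC00885 (chr3:196142386-196142645, plus strand): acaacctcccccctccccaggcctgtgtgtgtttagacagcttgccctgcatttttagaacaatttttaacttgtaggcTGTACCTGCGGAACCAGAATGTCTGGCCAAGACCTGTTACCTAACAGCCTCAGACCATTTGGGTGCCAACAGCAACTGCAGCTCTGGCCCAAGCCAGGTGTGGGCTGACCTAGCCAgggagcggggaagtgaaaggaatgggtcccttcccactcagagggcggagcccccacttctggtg
ARHGAP32 (chr11:129192316-129192575, minus strand): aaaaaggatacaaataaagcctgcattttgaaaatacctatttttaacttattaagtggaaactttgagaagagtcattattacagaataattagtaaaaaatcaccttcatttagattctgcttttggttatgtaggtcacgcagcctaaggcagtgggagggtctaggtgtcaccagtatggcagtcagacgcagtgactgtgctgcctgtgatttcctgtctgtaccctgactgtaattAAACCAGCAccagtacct
TMBIM6 (chr12:49741619-49741878, plus strand): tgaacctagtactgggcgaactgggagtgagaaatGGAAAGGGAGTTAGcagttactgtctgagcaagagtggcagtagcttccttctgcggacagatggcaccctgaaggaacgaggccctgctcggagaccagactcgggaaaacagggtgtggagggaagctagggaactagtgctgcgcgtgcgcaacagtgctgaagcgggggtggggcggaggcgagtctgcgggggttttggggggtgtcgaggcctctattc

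The summits lay 5 bp apart at FAM107B, 8 bp at ARHGAP32 and 13 bp at TMBIM6, which encodes a membrane protein that protects against cell death. They lay 115 bp apart at LINC00885, a long noncoding RNA gene. At FAM107B the PR region had a −log10 q of 399.0 (percentile 99.8 of its list) and the POLR3A region 17.2 (percentile 97.4). The LINC00885 promoter held AGAACA, the core hexamer of the response element, once in its 300 bases, as did 14.8% of all promoters, and the other 3 promoters held none of the 11 motifs searched.

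Strength was described by the percentile of −log10 q within a factor's own list, since scores of different lists cannot be compared. The share of POLR3A regions that were joint rose with strength, from 34.1% at percentiles 0 to 10 to 87.4% at percentiles 95 to 99. It then fell to 69.3% in the top 1%, where 332 of 479 regions were joint. That top class was of mixed kind: 261 of its regions were at RNA polymerase III genes and 128 of these were joint, while 204 of the 218 elsewhere (93.6%) were. Median width rose from 269 bp at percentiles 0 to 10 to 320 bp at 95 to 99 and 610 bp in the top 1%, and its part in the shares was not tested.

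PR regions followed another course. The joint share was 12.6% at percentiles 0 to 10, 25.2% at 60 to 70, and lower again at 80 to 90, with 20.1%. It then rose to 32.7% at percentiles 95 to 99 and to 69.7% in the top 1%, 777 of 1115 regions. The median PR width over the same classes was 257, 273, 368, 618 and 923 bp.

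**Figure D1:**
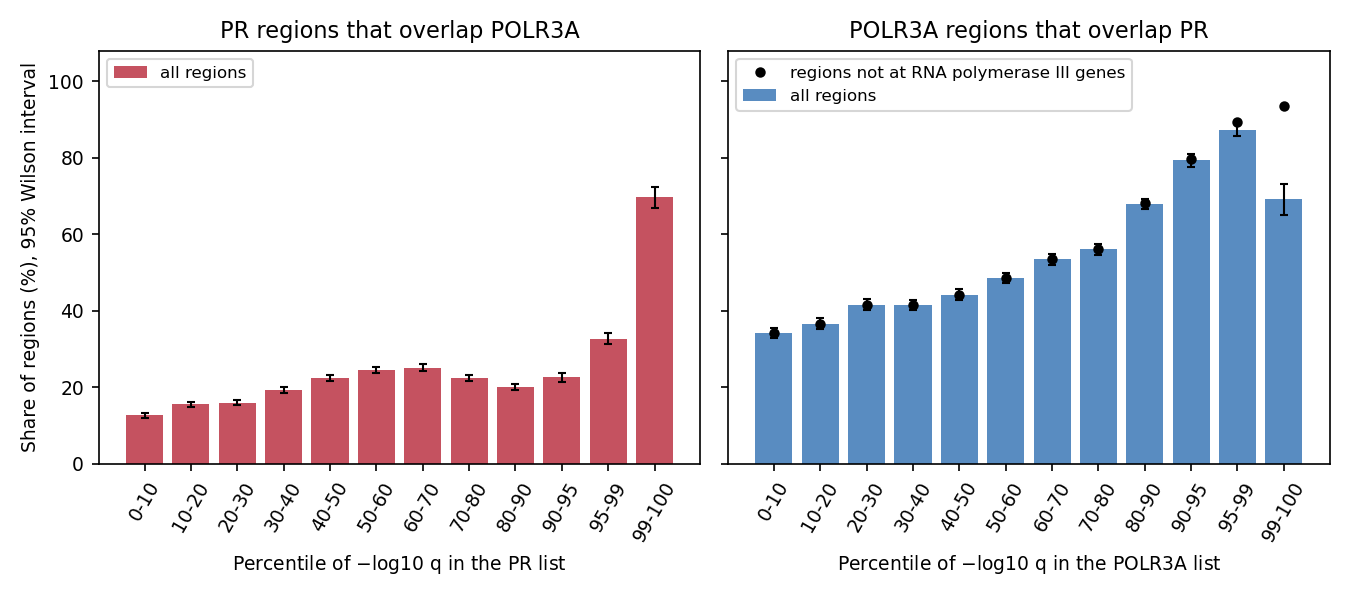
Share of PR regions that overlap POLR3A (left) and of POLR3A regions that overlap PR (right), in percent with 95% Wilson intervals, by percentile of −log10 q in the region's own list under P4. The PR share dips to 20.1% at percentiles 80 to 90 before its rise to 69.7%, and the POLR3A share falls from 87.4% to 69.3% in its top 1%; the black points leave out RNA polymerase III genes and reach 93.6% there.

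Joint regions were wider and ranked higher by q than those alone. Wide regions meet the 1 bp overlap rule more easily, and the part of width in these differences was not tested. Over all overlapping pairs, PR width and PR −log10 q had a Spearman coefficient of 0.53. The median joint PR region was 408 bp wide against 272 bp alone, and its median percentile was 57.3 against 47.5. In fold enrichment, the authors' ratio over background, joint and lone PR regions were close, with medians of 3.52 and 3.56 and percentiles of 49.4 and 50.2. For POLR3A the median width was 318 bp joint and 248 bp alone, the median −log10 q 3.72 and 2.91, and the fold 3.36 and 3.20. Within the 25042 overlapping pairs the strengths of the 2 factors went together weakly, with a Spearman coefficient of 0.22 across pairs that share chromatin and position. The coefficient was 0.30 between coding genes, 0.18 inside them, 0.12 at their ends and 0.03 over the 124 pairs at RNA polymerase III genes. Here and below, the context of a pair is that of the bases shared by its 2 regions.

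The top 1% of both lists met in 7 pairs, of which 4 were at RNA polymerase III genes. Of pairs with PR in its top 1%, 255 had POLR3A in the lower 50% of its list, 505 between percentiles 50 and 90, and 270 between 90 and 99. Of pairs with POLR3A in its top 1%, 94 had PR in the lower 50%, 144 between percentiles 50 and 90, and 142 between 90 and 99.

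At the PR end, the joint locus with the highest PR score was inside DERA, which encodes an enzyme of deoxyribose phosphate breakdown, on chromosome 12 (15936676 to 15937276, GRCh38). There PR had a −log10 q of 516.6 with a 71.2-fold enrichment, POLR3A had 31.4 with 10.5-fold, and the summits were 11 bp apart. A locus 52576 bp from the nearest end of PXDC1 on chromosome 6 had 514.2 for PR, 16.8 for POLR3A and a spacing of 86 bp. Inside ZBTB16, a zinc-finger repressor gene induced by progestins, 1 PR region of 508.0 covered 3 POLR3A regions (114178441 to 114181138 on chromosome 11), the strongest with 26.4 and a summit 14 bp away. The next were 36716 bp from SLC25A17 on chromosome 22 (507.9 and 10.9, 57 bp apart) and 10304 bp from C9orf152 on chromosome 9 (499.4 and 20.9, 30 bp apart). All 5 lay more than 10 kb from a coding gene end, and all had POLR3A above percentile 95. The gene table gives no exons, so introns and exons inside a gene were not told apart.

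At the POLR3A end, all 5 of the highest joint loci were at RNA polymerase III genes, with PR at percentiles from 38.6 to 97.3. TRT-AGT2-1, a threonine tRNA gene on chromosome 6 (locus 26532658 to 26533367), had a POLR3A −log10 q of 591.9 and a PR value of 3.96, with summits 243 bp apart. VTRNA1-2, a vault RNA gene on chromosome 5, had 589.4 and the strongest PR of the 5, 142.8, 214 bp away. RN7SK, whose RNA holds the elongation factor P-TEFb inactive, had 586.3 and 9.55 with 60 bp between. The histidine tRNA genes TRH-GTG1-8 and TRH-GTG1-9 shared a locus with 583.7 and 8.92, and the leucine tRNA gene TRL-TAG3-1 had 583.7 and 3.96, with spacings of 732 and 419 bp.

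Of the 5 loci strongest by the weaker of the 2 percentiles, 4 were at tRNA genes. They were the tyrosine and alanine genes beside TRIM55 on chromosome 8 (PR 390.2 and POLR3A 445.1), TRK-TTT3-4 on chromosome 11 (382.3 and 511.7), TRI-TAT1-1 in PLEKHG2 on chromosome 19 (274.2 and 440.6), and TRD-GTC2-10 with TRA-TGC4-1 on chromosome 12 (272.7 and 532.8). Their summits were 1260, 745, 595 and 194 bp apart. The remaining locus, on chromosome 5 (173766026 to 173768611), lay 120619 bp from an end of CPEB4 and had values of 415.1 and 63.4, with the strongest summits 878 bp apart.

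The strongest regions that stood alone differed in kind. Among PR-alone regions the highest −log10 q were 452.2 inside ANO6 and 450.1 over both SIRT2 and NFKBIB, 16 bp from an end of SIRT2. Next came 428.1 at 53344 bp from NEO1, 423.1 inside CDC5L and 418.3 at 10151 bp from TEDDM1. For these PR-alone regions the nearest POLR3A summit was 3504 to 59984 bp away. All 5 strongest POLR3A-alone regions covered tRNA genes. The highest, 583.7, covered the tRNA genes TRX-CAT1-7 and TRG-GCC2-3 on chromosome 6, with a PR summit 630 bp off. TRV-TAC1-2 in PPEF1 on chromosome X had 574.2, with the nearest PR summit 25235 bp away.

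Summits of overlapping pairs lay a median of 120 bp apart (quartiles 39 and 289 bp, 25042 pairs), with 45.5% within 100 bp and 89.4% within 500 bp. Over all contexts together, median spacing was smaller where both regions were strong. It was larger among strong pairs at coding gene ends, and strong pairs at RNA polymerase III genes were not summarised. The tRNA loci strongest in both lists, given above, had spacings of 194 to 1260 bp. With both above percentile 90 the median was 41 bp over 775 pairs, and 39.7% lay within 25 bp, against 131 bp and 13.1% over the 4699 pairs with both in the lower 50% of their lists. Their regions were wider, with a median width of the shorter region of 485 bp against 244 bp, while over all pairs wider regions had larger spacing (76 bp for shorter regions up to 200 bp, 276.5 bp above 800 bp).

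Pairs strong in 1 list only were spaced more widely than the pairs strong in both (median 41 bp). Against pairs in the lower 50% of both lists (131 bp), only those with strong PR were wider. Those with PR above percentile 90 and POLR3A in the lower 50% had a median spacing of 241 bp (1489 pairs), and those with POLR3A above 90 and PR in the lower 50% had 127 bp (638 pairs). With PR in its top 1%, the median was 36.5 bp where POLR3A was between percentiles 90 and 99 and 364 bp where it was in the lower 50%.

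**Figure D2:**
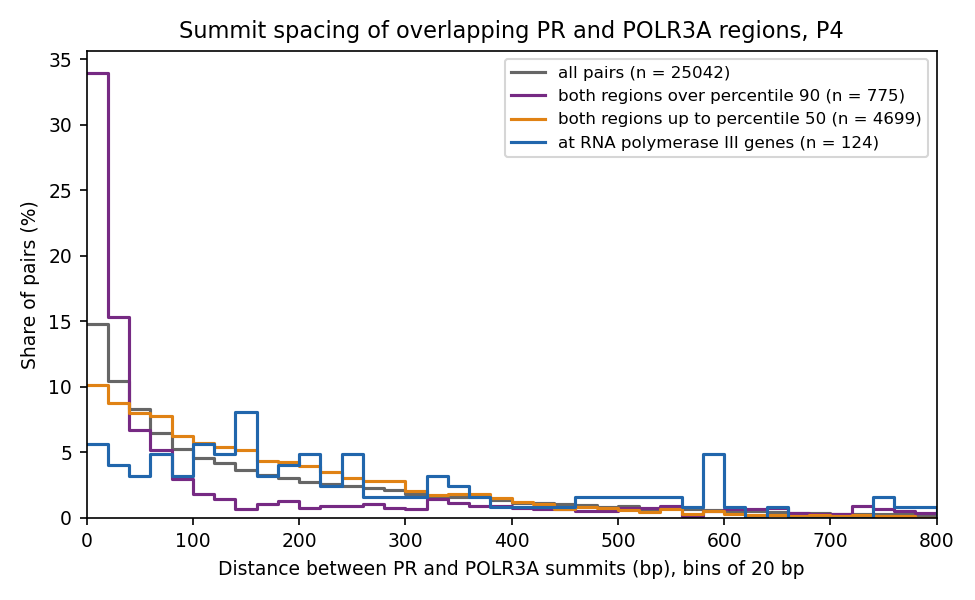
Distance in bp between PR and POLR3A summits of overlapping regions under P4, as the share of pairs in percent per 20 bp. Pairs with both regions over percentile 90 (median 41 bp, quartiles 14 and 305 bp) pile up below 40 bp but have a long tail. Pairs in the lower 50% of both lists (median 131 bp, quartiles 55 and 251 bp) have a lower peak and a shorter tail. Pairs whose shared bases lie at RNA polymerase III genes (median 213 bp) show no peak at 0.

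Spacing also varied with gene context. It was 79 bp between coding genes (10604 pairs), 141 bp inside them (8785 pairs), 162 bp within 1 kb of a coding gene end (5529 pairs) and 213 bp at RNA polymerase III genes (124 pairs). Among pairs strong in both lists, those between coding genes had a median of 25 bp (421 pairs), those inside genes 71.5 bp (264 pairs) and those at gene ends 260 bp (78 pairs), which is more than the 162 bp of all pairs there. Among pairs with POLR3A in its top 1% and shared bases outside RNA polymerase III genes, the median was 24 bp (265 pairs), and 51.7% were within 25 bp.

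At the edge of the overlap rule, members just inside and just outside had similar values. The 423 pairs that overlapped by 1 to 20 bp had median percentiles of 39.9 for PR and 40.4 for POLR3A and a spacing of 344 bp. The 255 POLR3A-alone regions that missed a PR region by under 20 bp had 40.6, 37.5 and 328 bp. Of all POLR3A-alone regions 24.0% had a PR region within 500 bp and 71.8% within 5 kb, and the median gap was 1749 bp.

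Joint loci lay within 1 kb of a coding gene end more often than lone regions did when all regions were counted. A coding gene end lay within 1 kb of 5230 of 22461 joint loci, 23.3% (22.7 to 23.8), 9.94% of PR-alone regions (9.74 to 10.1) and 12.6% of POLR3A-alone regions (12.2 to 13.1). Joint loci are unions of regions, with a median of 536 bp, so they reach an end more easily. Counted by summits, which have no width, 17.6% of joint PR summits, 17.7% of joint POLR3A summits, 6.79% of PR-alone and 8.71% of POLR3A-alone summits lay within 1 kb of a coding gene start (chromosome 8 not used here). Among members with a −log10 q of at least 10, by the same classes, the order differed: 6.33% of joint loci (5.23 to 7.64) lay near an end, against 7.67% of 22932 PR-alone regions (7.33 to 8.02) and 13.0% of 422 POLR3A-alone regions (10.2 to 16.6). Where the weaker regions were removed from both lists first, so that regions with only a weak partner counted as alone, the shares were 6.27%, 10.3% and 20.8%.

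**Figure D3:**
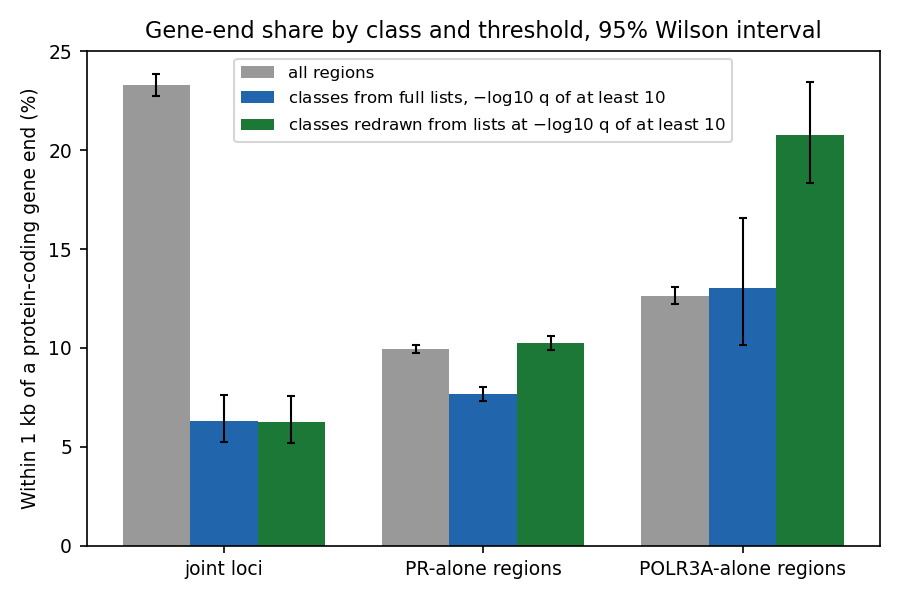
Share of joint loci, PR-alone and POLR3A-alone regions no more than 1 kb from an end of a coding gene, in percent with 95% Wilson intervals, over all regions (grey), over members of the same classes with −log10 q of at least 10 (blue), and with classes redrawn from lists limited to that score (green). Joint loci have the highest grey bar, 23.3%, and 6.33% and 6.27% in blue and green; their blue interval overlaps that of PR-alone regions.

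Beyond gene ends and RNA polymerase III genes, 33.6% of joint loci were inside coding genes and 42.7% between them, against 48.7% and 41.4% of PR-alone and 44.5% and 42.1% of POLR3A-alone regions. Of the PR regions at gene ends 37.9% were joint, against 15.6% of those inside genes. Of the POLR3A regions 64.3% were joint at gene ends, 44.4% inside genes and 50.7% between them.

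The gene ends with joint loci were mostly starts. Over 15812 coding genes with a known strand, 3633 had a joint locus within 1 kb of the 5′ end and 756 within 1 kb of the 3′ end, a ratio of 4.81. The ratio was 2.45 for PR-alone and 2.97 for POLR3A-alone regions. POLR3A summits were most frequent in the 200 bp after the start, with 11.1% and 9.31% of the joint summits within 1 kb in the first and the second 100 bp, against 5.66% in the 100 bp before it. POLR3A-alone summits had 11.2%, 8.90% and 4.98% in the same bins. Joint PR summits were spread more evenly, with 7.42%, 8.16% and 5.93%.

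At these starts neither factor lay on a fixed side of the other. Among 4349 pairs within 1 kb of a coding gene start, PR was upstream of POLR3A in 2118 and downstream in 2214, and the median spacing was 165 bp.

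**Figure D4:**
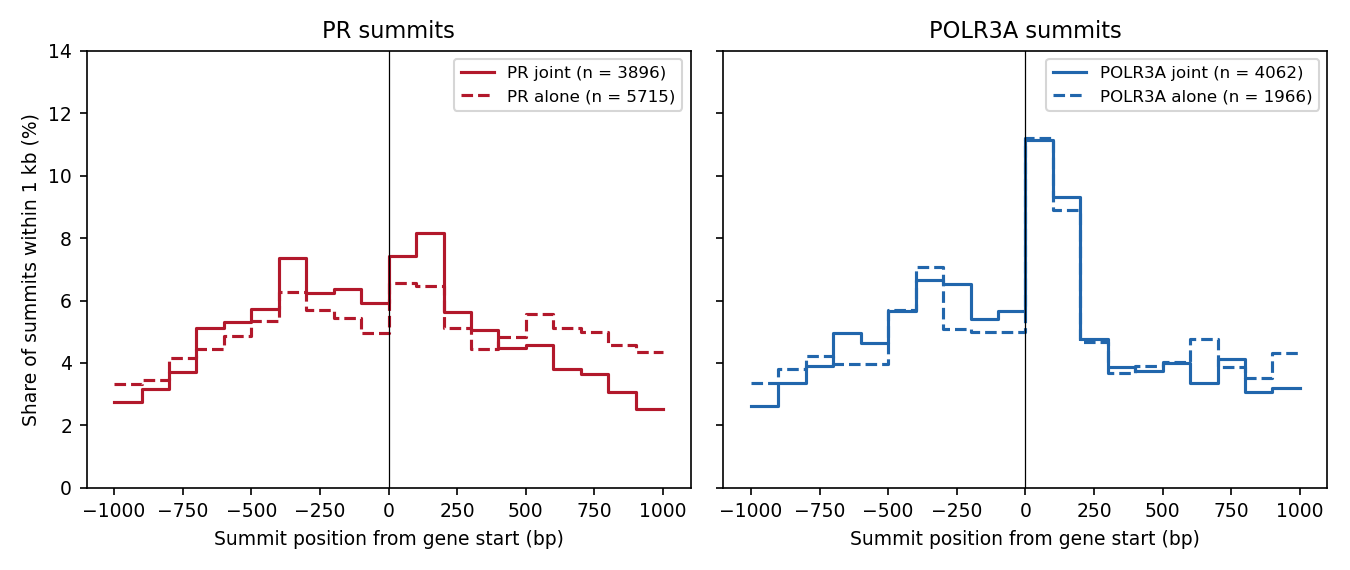
Position of summits from the nearest protein-coding gene start in bp, negative upstream, as the share of the summits within 1 kb in percent per 100 bp, for PR (left) and POLR3A (right), joint (solid) or alone (dashed). POLR3A summits, joint or alone, step up to about 11% just after the start; joint PR summits stay between 2.54% and 8.16% per bin.

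Promoter sequence differed between the classes. Of the 34789 RefSeq promoters of coding and long noncoding RNA genes, 2770 were reached by regions of both factors, 3857 by PR alone, 1496 by POLR3A alone and 26666 by neither. Median GC content was 61.7%, 62.0%, 64.7% and 56.7% in that order. Promoters with 60 to 70% GC had both factors most often, in 13.5%, and those under 50% GC in 2.01%.

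Motifs were searched on both strands. The full palindrome of a progesterone response element was in 0.391% of all promoters. It was in 35 PR-alone promoters (0.907%), 8 with both factors (0.289%), 3 with POLR3A alone (0.201%) and 90 with neither (0.338%). CCGGAAGT, a site of ETS-family factors, was in 4.12% of all promoters, 12.4% of those with both factors, 11.3% with POLR3A alone, 6.90% with PR alone and 2.45% with neither. The B box of tRNA genes was in 0.187% of all promoters and in 12 with POLR3A alone (0.802%) and 9 with both (0.325%). CCAAT was at 33.8% to 37.1% in all 4 classes, and TATAAA was in 6.79% with both factors, 6.30% with PR alone, 7.55% with POLR3A alone and 13.1% with neither. These are descriptions of letters, and the classes also differ in GC content.

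RNA polymerase III genes were the places where POLR3A was strongest. Counting the gene with 100 bp on each side, 111 of 429 nuclear tRNA genes had both factors, 240 had POLR3A without PR, 77 had neither and 1 had PR alone. In all 111 the regions of the 2 factors overlapped each other, but they came from 98 PR and 83 POLR3A regions, since neighbouring genes share regions. The median POLR3A percentile was 99.9 at genes with both factors and 99.5 at genes with POLR3A alone. In −log10 q these medians are 520.5 and a value between 148.2 and 161.7. PR at genes with both had a median percentile of 59.1 (lowest 0.832, highest 99.8). The PR summit lay within 100 bp of the gene's midpoint at 29 of the 111 genes and the POLR3A summit at 79. The exception with PR alone was TRK-CTT6-1, a lysine tRNA gene on chromosome 18, where the PR summit was 852 bp from the midpoint.

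PR was more frequent at tRNA genes close to a coding gene end. Of the tRNA genes with POLR3A, PR was at 30 of 53 (56.6%, 43.3 to 69.0) within 1 kb of a coding gene end, 40 of 88 (45.5%) at 1 to 10 kb, 39 of 171 (22.8%) at 10 to 100 kb and 2 of 39 (5.13%, 1.42 to 16.9) beyond 100 kb. POLR3A regions away from RNA polymerase III genes were 64.5%, 46.1%, 45.4% and 56.7% joint over the same distances. Their share also fell from the first class to the second, but beyond 10 kb it did not go on falling as at tRNA genes. The 2 series follow different rules, so their levels are not directly comparable. A tRNA gene needed PR on the gene or within 100 bp of it, and the other regions any overlap of 1 bp or more. By overlap, 132 of 331 POLR3A regions at RNA polymerase III genes (39.9%) were joint. The median POLR3A percentile of the tRNA genes fell from 99.9 to 99.1 over the same distance classes, which in −log10 q is a fall from 513.2 to 48.0. Chromosome 6 holds the largest tRNA clusters, and 17 of its 127 genes with POLR3A (13.4%) had PR, against 94 of 224 (42.0%) elsewhere. Neighbouring tRNA genes are not independent, and the intervals do not allow for that.

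**Figure D5:**
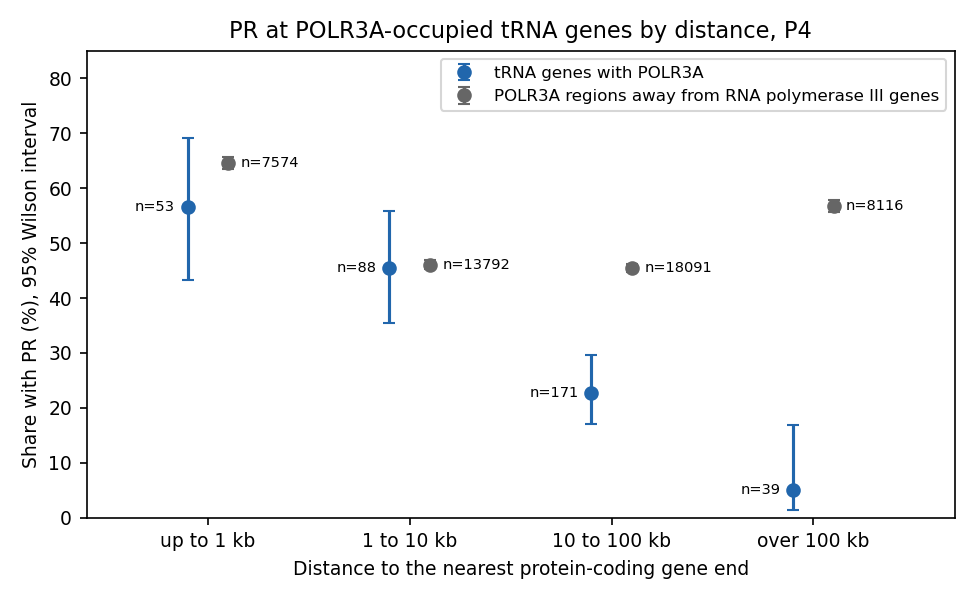
Share with PR in percent, with 95% Wilson intervals, by distance to the nearest protein-coding gene end, for tRNA genes with POLR3A (blue) and for POLR3A regions away from RNA polymerase III genes (grey). The tRNA genes fall from 56.6% to 5.13%, and the other regions stay between 45.4% and 64.5%. A tRNA gene counts where PR lies on it or within 100 bp, the other regions where PR overlaps them by 1 bp or more.

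The 6 tRNA genes with the highest PR percentile shared 4 PR regions, whose summits lay 149.5 to 771 bp from the gene midpoints. At TRK-TTT3-4, a lysine tRNA gene on chromosome 11 (59560335 to 59560407), the PR summit (−log10 q 382.3) was 771 bp from the midpoint and the POLR3A summit (511.7) 26 bp. At TRI-TAT1-1, an isoleucine gene on chromosome 19 (39412168 to 39412260), the distances were 554 and 41 bp. At TRD-GTC2-10, an aspartate gene on chromosome 12 (124939647 to 124939718), they were 169.5 and 24.5 bp, and the same PR summit was 149.5 bp from the neighbouring TRA-TGC4-1. TRA-AGC8-2 and TRY-GTA5-2 on chromosome 8 shared PR and POLR3A regions with summits 1260 bp apart. Distance was not fixed by strength: at TRK-TTT3-2, a lysine tRNA gene on chromosome 1 with PR at 97.9 (percentile 95.8), chosen after its values were seen, the PR summit was 14 bp from the midpoint and 30 bp from the POLR3A summit.

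Among 20 other RNA polymerase III genes, 12 had both factors, 7 had POLR3A without PR and 1, VTRNA2-1, had neither. PR was closest to the gene at RNY1, a Y RNA gene, where its summit (−log10 q 9.17) was 6 bp from the midpoint and 20 bp from the POLR3A summit (312.1). At VTRNA1-1 it was 28.5 bp (3.71) and at RN7SL1, which encodes the RNA of the signal recognition particle, 26 bp (10.5). It was farthest at RMRP, the RNA of RNase MRP, at 479.5 bp (3.36). The strongest PR values were at VTRNA1-2 (142.8), RN7SL2 (88.7) and RNY3 (24.6), with PR summits 214.5, 384 and 329.5 bp from the midpoint. The U6 genes were divided: RNU6-2 and RNU6-8 had PR and RNU6-1, RNU6-7 and RNU6-9 did not, although POLR3A was at 417.9 at RNU6-1 and 470.2 at RNU6-9.

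Protein-coding genes were described through lists, chosen with earlier results of these data known. Over all 19821 coding genes, 24.7% had a joint locus within 1 kb of an end and 42.1% had one within 10 kb of the gene span. Of 20 PR target genes 8 had one at an end and 13 in the span. For comparison, 80.1% of all coding genes had a PR region and 58.3% a POLR3A region in the span, and 19 and 15 of the 20 PR targets did. The joint counts were 10 and 12 of 15 luminal breast genes, 14 and 20 of 30 genes of the RNA polymerase III machinery, 10 and 12 of 20 cytosolic aminoacyl-tRNA synthetase genes, and 6 and 7 of 15 steroid receptor coregulator genes. The median span was 24482 bp over all coding genes and from 18528 bp (luminal genes) to 101244 bp (coregulators) in the lists, so spans are not matched. The regions, joint loci and best loci given for a gene below include those up to 10 kb outside it.

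At the 13 PR targets with a joint locus in the span, the spacing at the best locus ran from 1 to 331 bp. FKBP5, GREB1, EHF and STAT5A, given first, had the smallest spacings. FKBP5, which encodes a chaperone of steroid receptors, had 34 PR and 20 POLR3A regions and 11 joint loci, and the best of these, by the weaker percentile, lay at 35725108 to 35728692 on chromosome 6 with PR at 492.9, POLR3A at 13.5 and a spacing of 4 bp. GREB1, an oestrogen-induced growth gene, had 57 PR and 24 POLR3A regions with 13 joint loci, the best with 391.8, 7.37 and 6 bp. EHF, an epithelial ETS factor, had 12 joint loci, the best with 313.7, 8.33 and 1 bp. STAT5A, a transcription factor of prolactin signalling, had 1 joint locus, with 378.1, 2.66 (percentile 31.6 of the POLR3A list) and 4 bp. In contrast, CDKN1A, a cell cycle inhibitor gene, had a spacing of 257 bp and CCND1, the cyclin D1 gene, 319 bp at their best loci.

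The best joint locus of PER1, a core clock gene, was a tRNA site. It covered TRS-CGA1-1 and TRT-AGT5-1 on chromosome 17 (8138535 to 8139809), with POLR3A at 467.2 and PR at 3.36. No joint locus was in the span of TNFSF11 (RANK ligand), SGK1, TSC22D3, KLF9, WNT4, F3 or ERRFI1. ERRFI1 had no region of either factor, while TNFSF11, SGK1, TSC22D3 and KLF9 had 2 to 7 PR regions and no POLR3A region.

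Among luminal genes, PGR, which encodes PR itself, had 2 joint loci, the best at 101128700 to 101129867 on chromosome 11 with PR at 208.6 and POLR3A at 4.43, 189 bp apart. GATA3, a luminal transcription factor gene, had 7 joint loci and SPDEF 11. The neighbouring keratin genes KRT8 and KRT18, whose windows overlap, had 12 and 5, and ERBB3, a receptor tyrosine kinase gene, had 12. TFF3, a secreted trefoil peptide gene, had 1 with summits 18 bp apart (8.64 and 7.02). ESR1, the oestrogen receptor gene, had 25 PR regions and 1 joint locus of low POLR3A score (2.21), and MYB had PR regions without POLR3A.

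Among genes of the RNA polymerase III machinery, POLR3E, which encodes a subunit of the enzyme, had a joint locus at 22297920 to 22298793 on chromosome 16 with POLR3A at 445.1, PR at 30.9 and a spacing of 95 bp. The first intron of POLR3E is known to hold a repeat element that RNA polymerase III transcribes. Whether this locus covers that element was not tested. A leucine tRNA gene 229 bp from an end of POLR3E, TRL-AAG2-4, had POLR3A at 511.8 without PR. POLR3A itself had 5 joint loci, the best of them outside the gene, with PR at 10.3 and POLR3A at 6.73, 75 bp apart. BRF1 and SNAPC4, genes of initiation factors, had PR at 186.2 and 328.2 (percentiles 98.2 and 99.5) with POLR3A at 2.34 and 3.72 (percentiles 21.9 and 61.2). The SNAPC4 locus, at 136409496 to 136410185 on chromosome 9, lay outside the gene, which spans 136375571 to 136400170. MAF1, which encodes a repressor of RNA polymerase III, had 5 joint loci, the best of them outside the gene, with 47.4 and 11.7. POLR3D had POLR3A without PR, and POLR3G, POLR3K, POLR1D, TBP, GTF3C1 and GTF3C6 had PR without POLR3A.

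Among synthetase genes, which encode the enzymes that charge tRNAs, LARS1 had a joint locus at 146182080 to 146182605 on chromosome 5 with PR at 17.5, POLR3A at 7.60 and 46 bp between. FARSA had 3 joint loci (best 26.6 and 10.3) and MARS1 6 (12.9 and 7.47, 14 bp), and the best loci of both lay outside the genes. CARS1 had PR at percentile 98.2 and POLR3A at 59.9 (−log10 q 185.3 and 3.72). Among coregulators, HSP90AA1 had 6 joint loci and FKBP4 4, and PR at the best locus of FKBP4 was 103.1, with POLR3A at 6.11. NCOA1, NCOA2, NCOR1, EP300 and NRIP1 had PR regions without POLR3A in the span.

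The vehicle lists gave a readout that the choice of classes had not used, from the same cell line and antibodies. Of the joint loci 28.2% had regions of both factors under vehicle, 19.8% PR alone, 14.7% POLR3A alone and 37.3% neither. Lone regions had fewer counterparts: 20.4% of PR-alone regions overlapped PR under vehicle, and 11.8% of POLR3A-alone regions overlapped POLR3A. The values for joint loci, which are wider, were 48.0% and 42.9%. By the weaker percentile of a joint locus, both factors were present under vehicle at 10.9% of loci at percentiles 0 to 25 and at 83.1% above 90, where 2 of 720 had neither.

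The counterparts varied with context. At RNA polymerase III genes 129 of 130 joint loci had POLR3A under vehicle and 64 of them also had PR. Of the POLR3A-alone regions at these genes, 188 of 199 (94.5%) had POLR3A under vehicle. At coding gene ends 55.1% of joint loci had POLR3A and 44.4% PR under vehicle, while between coding genes PR was the more frequent, 54.3% against 44.9%. The lists differ in length and their depth is unknown, so a missing counterpart is not a measured absence.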

How the data were processed

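Per the submitters' processing notes, cutadapt, Bowtie2 and MACS2 were used with build hg38; their settings, the control and the pooling of replicates are not given in the sources used here. The values deposited are a fold enrichment (ratio) and a −log10 q per region, and a summit position; these are the authors' own, and served for ranks and thresholds inside 1 list at a time. The highest q-value in the P4 lists was 0.0497. The files hold no read counts, so depth is unknown and could change list length and overlap. Regions on chromosomes 1 to 22 and X were used. Overlaps, joint loci (connected overlaps) and nearest distances were computed with Python 3.11.15, numpy 2.4.6 and networkx 3.6.1. Both overlap counts equalled those of bedtools 2.31.1, and on simulated data 20 of 20 pairs of lists gave back all planted pairs and spacings. Genes came from RefSeq GRCh38.p14, where 58419 of 59098 entries were kept by leaving out alternate sequences; strand came from the promoter table, which held no chromosome 8. No statistical test was run, since each antibody has 1 list; intervals are 95% Wilson intervals over regions or genes. Loci were named as the 5 highest by PR, by POLR3A, by the weaker percentile and of each lone class, the 6 tRNA genes with the highest PR percentile, and genes of fixed lists. The members and lists were chosen with earlier results of these data known. Alternatives changed the q threshold, overlap rule, list length, distances and score. Some members of the lists are not reported here.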

Additional observations from a re-analysis of the deposited data

Results flagged for a closer look

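Outside chromosomes 1 to 22 and X, in data not used in the comparisons above, the P4 lists held 1019 PR and 790 POLR3A regions. Of these POLR3A regions 624, or 79.0%, overlapped a PR region, against 50.5% on the chromosomes compared. No control list was used here.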

How the results depend on the processing

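No paired analysis was possible because each antibody has 1 peak list and no value per replicate. Values depended on the settings more than on counting error. The joint share of POLR3A regions, 50.5%, was 58.3% at −log10 q of at least 5, 62.6% at 10, 26.1% with 50% reciprocal overlap, 27.1% with lists of equal length and 23.8% with summits within 100 bp. That of PR regions, 20.9%, was 9.79%, 5.25%, 11.2%, 24.5% and 10.2%. The median spacing, 120 bp, was 16 bp at −log10 q of at least 10, 60 bp with reciprocal overlap and 113 bp for the nearest summits within 500 bp. Within reach of a coding gene end, joint loci, PR-alone and POLR3A-alone regions had 6.27%, 10.3% and 20.8% with classes redrawn from lists at −log10 q of at least 10, 6.33%, 7.67% and 13.0% with the classes kept and that threshold applied to their members (chosen after seeing the data), and 37.7%, 25.6% and 31.1% at 5 kb. The tRNA genes with both factors numbered 70 at −log10 q of at least 5, and 89 and 150 with 0 and 500 bp on each side. The median percentile of joint regions by fold was 49.4 for PR and 54.8 for POLR3A, and 57.1 and 69.0 by −log10 q with reciprocal overlap. The causes were not tested.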

Other observations

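Joint loci were crowded in some genes. GSE1 on chromosome 16, which encodes a subunit of a corepressor complex, had 133 joint loci within 10 kb of its 506689-bp span, the highest count of any coding gene, with 261 PR and 216 POLR3A regions; 75.9% of the latter were joint. That is 25.3 joint loci per 100 kb against 0.741 over the chromosomes compared, and CUEDC1 on chromosome 17, with 33 joint loci in a shorter span, had 28.9. KCNMA1, a potassium channel gene on chromosome 10, followed with 67, ANKRD11 on chromosome 16 with 42 and GRIK4 on chromosome 11 with 41. PRLR, the prolactin receptor gene, had 35, as did ZMIZ1, and GRHL2, an epithelial transcription factor gene, had 34. At 20 or more joint loci stood 28 coding genes. GSE1 also had 120 PR and 154 POLR3A regions under vehicle. NBPF19 and NBPF20, with 40 and 33 (39.5 and 21.2 per 100 kb), belong to a family of near-identical copies, so their counts are uncertain. These genes were chosen after their values were seen.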
